A study of Aedes aegypti with 8 samples.

Results

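A set of 143 of the 19712 gene identifiers in the midgut count table had a lower level in every library of midguts kept with heme than in every library of midguts kept without it. Levels were expressed as CPM, the count of an identifier as a share of the library total, scaled to the same total in every library, after 37 consecutive identifiers, AAEL018658 to AAEL018694, had been taken out of the table. The members were selected on these levels: the mean at 0 µM heme had to be at least 0.5 CPM, the highest library at 10 µM heme had to lie below the lowest library at 0 µM heme, and the mean at 10 µM heme could be at most 57.1% of the mean at 0 µM heme. Of the 148 identifiers that met these conditions, 5 were left out by name (AAEL000859, AAEL019869, AAEL003619, AAEL020936 and AAEL002557). The lower level at 10 µM heme was therefore the criterion of choice, and the differences between the groups given here are descriptions of the chosen genes with no test.

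In a search for genes of heme transport that respond to heme, RNA-seq was performed on midguts of *Aedes aegypti*, the yellow fever mosquito, dissected from sugar-fed females of the Liverpool strain aged 3 to 5 days and kept ex vivo for 35 h at 28 °C. The heme group was cultured in Schneider's *Drosophila* medium with 10 µM heme, given as hemin chloride, and the controls in the same medium with 0 µM heme. Neither medium held serum, both held antibiotics, and the medium was renewed every 8 to 12 h. Each group had 4 libraries, and each library came from a pool of midguts, so that values of single animals were not measured.

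The midgut is a tube of epithelium, with secretory endocrine cells and stem cells among the absorptive cells and a thin muscle layer around it. In a blood-feeding mosquito this epithelium digests hemoglobin and meets the heme it releases. Heme is a cofactor and a signal, but as a free pro-oxidant it can damage membranes and proteins. Removal of peroxides, binding of heme outside the cell and its breakdown inside the cell are known ways in which insects limit that damage.

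Library totals lay between 46027977 and 56947544 counts. The 37 identifiers that were taken out held 6.85, 0.251, 1.76 and 3.13% of the counts in replicates 1 to 4 at 10 µM heme, and between 0.165 and 0.332% in the 4 libraries at 0 µM heme. Genes with a tissue label were few among the identifiers with a product name. The 16 kDa subunit of the V-type proton ATPase (AAEL000291), an abundant pump of insect gut epithelium, had 1648 to 2211 CPM at 10 µM heme and 1727 to 2323 CPM at 0 µM heme. Paramyosin (AAEL000485), a muscle protein, had 97.6 to 120 CPM at 10 µM heme and 107 to 140 CPM at 0 µM heme. The reference gene rpS7 (AAEL009496) had 1652 to 1876 CPM at 10 µM heme and 1570 to 1936 CPM at 0 µM heme, so that the groups overlapped for each of these 3 genes. Since whole midguts were sequenced, fewer cells of a type and less RNA per cell cannot be told apart.

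Of the 9498 identifiers with a mean of at least 0.5 CPM at 0 µM heme, 613 (6.45%) had every heme library below every library without heme, and the fold condition kept 148 of these. The opposite pattern, every heme library above every library without heme, was met by 278 of the 9498 (2.93%). With the fold condition turned round as well, 86 identifiers had the raised pattern. The tests, unlike the CPM, were fitted on the whole table with AAEL018658 to AAEL018694 kept in. In the edgeR exact test across all 11095 genes that passed the filter on low counts, 268 genes (2.42%) had a lower level with heme at a Benjamini-Hochberg adjusted p under 0.05, and 46 (0.415%) at an adjusted p under 0.0001. All 143 chosen genes passed that filter, and 123 and 37 of them were among those calls. The edgeR quasi-likelihood test called 86 of the members lower, where it called 170 of all genes (1.53%), and with the replicate number as a block it called 113 members and 374 of all genes (3.37%). DESeq2 called 127 members and 398 of all genes (3.60%), and limma-voom called 113 members and 334 of all genes (3.01%). Because the choice used the same comparison, nothing can be read from these counts. The exact test also called 145 genes lower that were outside the set.

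The chosen genes had between 18.5 and 57.1% of their 0 µM level at 10 µM heme, with a median of 47.4%. On the log2 scale of the mean CPM, the differences between 10 µM and 0 µM heme ran between -2.44 and -0.81 with a median of -1.08, beside a median of -0.03 over all 9498 identifiers. At 10 µM heme 86 genes stood at or below 50% of their 0 µM level, 7 of them at or below 25%, and 57 lay above 50%. Most members were thus moderately lower, and a small group was lower by a much larger ratio. The plot of mean levels shows the set as a band under the line of equal levels that thins out at high CPM, with 3 members at 100 CPM or more.

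**Figure D1:**
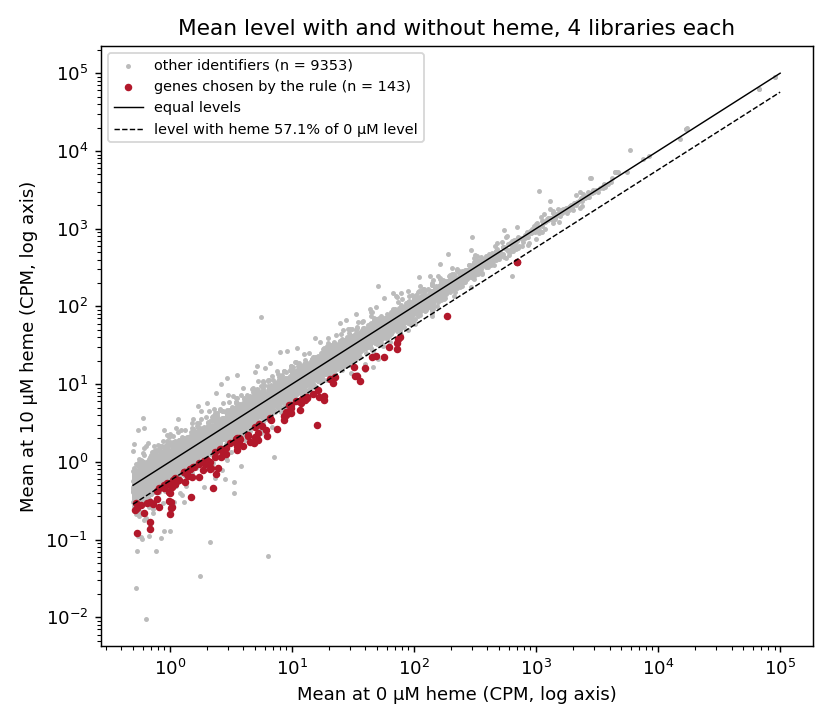
Mean level of each identifier at 10 µM heme (vertical axis, CPM, log scale) against its mean level at 0 µM heme (horizontal axis, CPM, log scale), each mean over 4 libraries, for identifiers with at least 0.5 CPM at 0 µM heme and a mean above 0 at 10 µM heme. The 143 chosen genes (red) lie below the dashed line at 57.1% of the 0 µM level by the rule that chose them, with means at 0 µM heme between 0.514 and 694 CPM.

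The set was made up mainly of genes with few counts. CPM are not divided by gene length, so that an order of genes by CPM is not an order of transcript numbers. Mean levels ranged between 0.122 and 378 CPM at 10 µM heme (median 1.53) and between 0.514 and 694 CPM at 0 µM heme (median 3.11), beside a median of 7.53 CPM at 0 µM heme over all 9498 identifiers. Identifiers with 0.5 to 1 CPM at 0 µM heme gave 21 of 1129 (1.86%), and those with 1 to 5 CPM gave 68 of 2829 (2.40%). Between 5 and 20 CPM the share was 35 of 2486 (1.41%), and between 20 and 100 CPM it was 16 of 2116 (0.756%). At 100 CPM or more 3 of 938 identifiers (0.320%) belonged to the set. Of the 143 genes, 10 had a heme library with fewer than 10 counts, and none had a heme library at 0.

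The lowest library at 0 µM heme was between 1.00 and 3.04 times the highest library at 10 µM heme, with a median of 1.26. It was at least 1.5 times as high in 41 genes and at least 2 times as high in 7 genes. In 27 genes it was less than 10% higher, so that the groups nearly touched. The spread within a group was alike on both sides: the median coefficient of variation over 4 libraries was 20.7% at 10 µM heme and 20.8% at 0 µM heme. The map of all members by library shows these levels side by side.

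**Figure D2:**
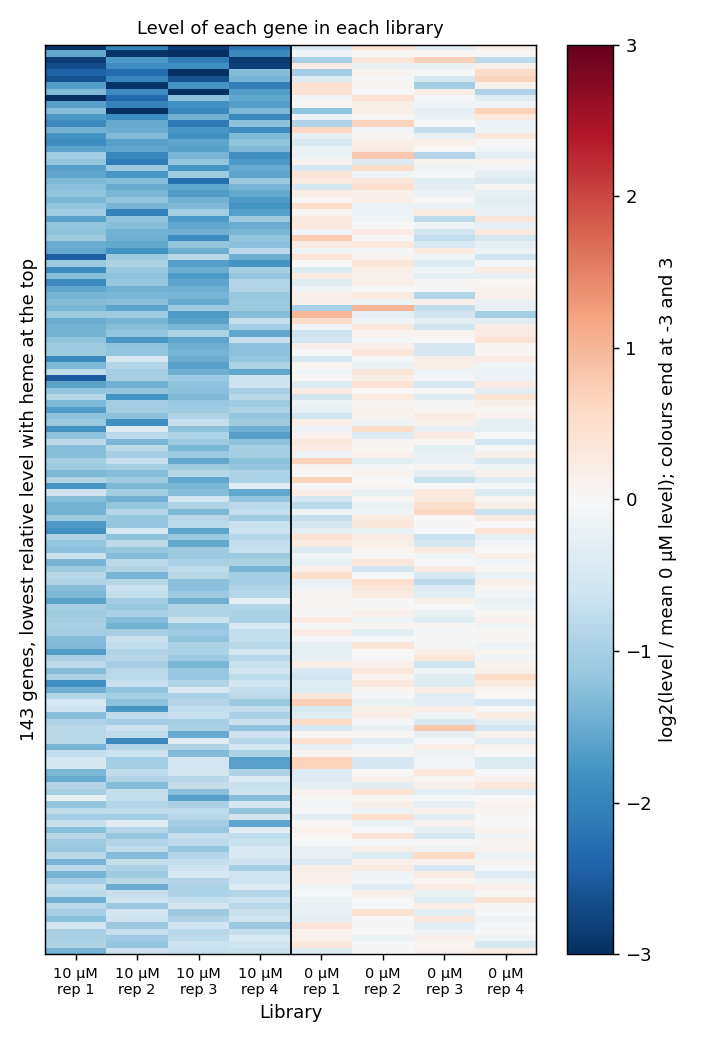
Level of the 143 genes (rows, lowest relative level with heme at the top) in the 8 libraries (columns, 10 µM heme left of the line and 0 µM heme right of it), as log2 of the CPM over the gene's mean at 0 µM heme. The heme columns lie on the blue side of the scale in every row, as the rule requires, and a few rows change strongly among the libraries of 1 group.

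Summed over the 143 genes, the level was 1564, 1344, 1577 and 1166 CPM in replicates 1 to 4 at 10 µM heme, against 3662, 2548, 2699 and 2490 CPM at 0 µM heme. The means were 1413 ± 196 CPM at 10 µM heme and 2850 ± 548 CPM at 0 µM heme (SD, n = 4 each), or 49.6% of the 0 µM sum. Replicate 1 at 0 µM heme stood well above the other 3 libraries of its group. AAEL002309 and AAEL002311 together held 48.7% of the sum at 0 µM heme, and AAEL001232 held a further 6.57%. Counts of the overlapping genes AAEL002309 and AAEL002311 were near-equal in every library, so the same reads may enter the sum under both. Without these 3 genes the sums were 583 ± 27.2 CPM at 10 µM heme and 1275 ± 67.9 CPM at 0 µM heme, or 45.7%. The sums of the remaining 140 genes thus had little spread in either group, and replicate 1 at 0 µM heme no longer stood apart. The rule bears on this spread, since it leaves out genes whose groups overlap, and a sum over many genes evens out their separate variation. Single members varied more, with a median coefficient of variation of 20.7% at 10 µM heme and 20.8% at 0 µM heme.

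**Figure D3:**
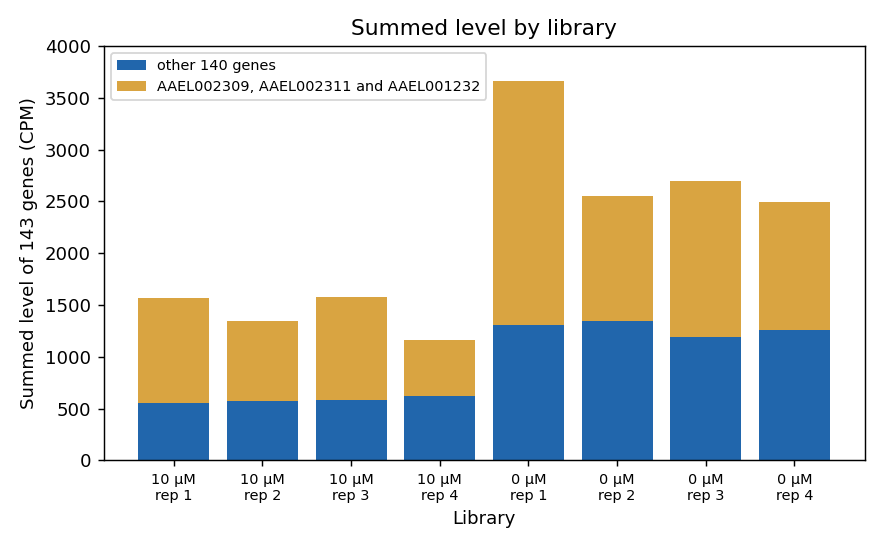
Summed level of the 143 genes in each library (CPM, bars starting at 0), with replicates 1 to 4 at 10 µM heme on the left and replicates 1 to 4 at 0 µM heme on the right. The yellow part is the sum of the 3 genes with the highest CPM and the blue part the other 140 genes, which summed to 583 ± 27.2 CPM at 10 µM heme and 1275 ± 67.9 CPM at 0 µM heme. In the yellow part the same reads may be counted under both AAEL002309 and AAEL002311.

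A product name could be given to 9 of the 143 genes. Of the rest, 10 were listed in the annotation that accompanies the study without a product, and the others were matched in neither that annotation, which was available only in shortened form, nor the RefSeq gene table. Most of the set is therefore known here only by identifier. The named products were a hormone receptor, a small GTPase, a peroxidase of the thioredoxin system, an enzyme of nucleotide metabolism, an enzyme of sugar metabolism, a cytochrome P450, a motor protein, a protease homologue and an odorant binding protein.

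GPRCAL1 (AAEL010043), annotated as a G protein-coupled receptor of the calcitonin and diuretic hormone family, was the only member annotated as a receptor. In *Drosophila* a peptide of this hormone family is made by endocrine cells of the midgut, and such receptors act on gut and Malpighian tubule function. At 10 µM heme GPRCAL1 had 1.52, 1.54, 1.53 and 1.83 CPM, against 4.43, 4.92, 2.19 and 4.45 CPM at 0 µM heme. Replicate 3 at 0 µM heme was far below the other 3 and came close to the highest heme library, although the groups did not overlap. The level at 10 µM heme was 40.2% of that at 0 µM heme.

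The thioredoxin peroxidase TPX4 (AAEL002309) and a putative ADP-ribosylation factor (AAEL002311) had by far the highest CPM of the set. Thioredoxin peroxidases, also called peroxiredoxins, reduce hydrogen peroxide with electrons from thioredoxin. ADP-ribosylation factors are small GTPases that recruit coats to membranes during vesicle traffic. AAEL002309 had 479, 345, 463 and 222 CPM at 10 µM heme, against 1104, 492, 657 and 520 CPM at 0 µM heme. The levels of AAEL002311 were 480, 345, 464 and 223 CPM at 10 µM heme, against 1104, 493, 658 and 521 CPM at 0 µM heme. In each library the counts of both identifiers were equal to within 2%, with ratios of 0.997 to 0.999. The annotation places AAEL002309 inside the span of AAEL002311 on the opposite strand, and nothing consulted here says whether reads were counted by strand. The reads of these overlapping genes cannot be told apart, and neither level can be given to the peroxidase or to the GTPase alone. The highest heme library and the lowest library at 0 µM heme differed by only 1.03 times for both, and replicate 1 at 0 µM heme was far above the rest. Without that library AAEL002309 stood at 67.8% of the 0 µM level, which is outside the rule. After TMM scaling, which corrects library totals for their composition, the groups overlapped for both identifiers.

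Adenylate kinase 3 (AAEL000629) belongs to a family of enzymes that pass phosphate groups between adenine or guanine nucleotides, and in mammals it lies in the mitochondrial matrix. Its levels were 1.10, 1.35, 1.27 and 1.32 CPM at 10 µM heme, against 2.51, 2.84, 2.67 and 3.16 CPM at 0 µM heme. This was among the cleanest separations of the named genes, with the lowest library at 0 µM heme at 1.85 times the highest heme library. UDP-glucose 4-epimerase (AAEL007018), which interconverts UDP-glucose and UDP-galactose, had 2.24, 3.47, 2.68 and 3.15 CPM at 10 µM heme, against 6.15, 6.90, 4.51 and 5.42 CPM at 0 µM heme. Every heme library was below every library at 0 µM heme, and the mean with heme was 50.2% of the mean without it.

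CYP307A1 (AAEL009762) is a cytochrome P450, an enzyme family that carries heme in its active site. In *Drosophila* its relatives act at an early step of the synthesis of ecdysteroids, the insect molting hormones. CYP307A1 had 4.17, 5.51, 5.06 and 3.10 CPM at 10 µM heme, against 10.5, 7.29, 11.5 and 9.16 CPM at 0 µM heme. The groups did not overlap, and replicate 4 was the lowest with heme while replicate 2 was the lowest without it. The mean at 10 µM heme was 46.4% of that at 0 µM heme.

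A dynein heavy chain (AAEL008036), the motor subunit of a complex that walks along microtubules, was among the 10 members with the highest CPM at 0 µM heme. It had 20.1, 24.3, 22.7 and 24.0 CPM at 10 µM heme, against 43.1, 54.6, 42.0 and 55.5 CPM at 0 µM heme. The heme libraries were close to each other, and the libraries without heme formed a lower pair, replicates 1 and 3, and a higher pair, replicates 2 and 4. At 10 µM heme the level was 46.7% of the 0 µM level.

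The remaining named genes encode proteins of the cell exterior. CLIPA15 (AAEL002126) belongs to the CLIP-domain family of extracellular proteins that take part in insect immune cascades, and is annotated as a protease homologue, a form in which the protease domain is not active. It had 0.300, 0.181, 0.403 and 0.308 CPM at 10 µM heme, against 0.741, 0.580, 0.723 and 0.547 CPM at 0 µM heme. These levels were among the lower ones of the set, and replicate 2 was the lowest of the heme libraries. OBP21 (AAEL005770) is an odorant binding protein, a family of small secreted carriers of hydrophobic ligands. Its levels were 2.68, 3.59, 2.52 and 3.35 CPM at 10 µM heme, against 4.58, 7.35, 4.26 and 5.25 CPM at 0 µM heme. At 56.7% of the 0 µM level it was close to the limit of the rule, and it stood at 64.6% without replicate 2 at 0 µM heme and did not meet the fold condition after TMM scaling.

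**Figure D4:**
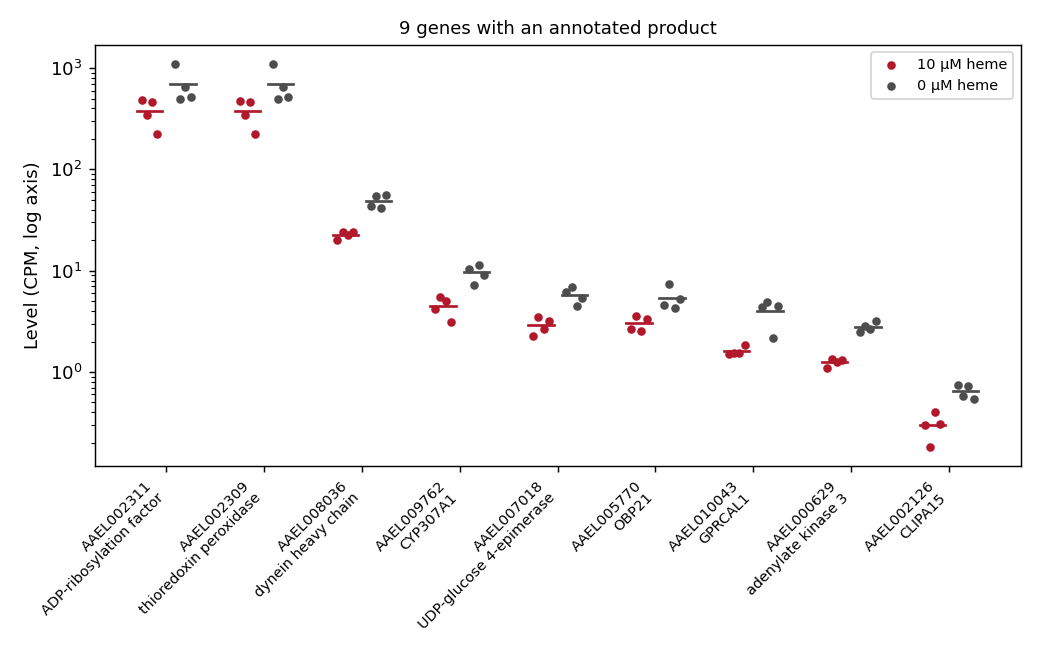
Level of the 9 genes with an annotated product in each library (CPM, log axis), with 10 µM heme in red on the left of each pair and 0 µM heme in grey on the right; points are libraries and lines are means of 4. Every red point lies below every grey point of its gene, with gaps between 1.03 times for AAEL002309 and AAEL002311 and 1.85 times for adenylate kinase 3.

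For 5 of the 9 named members, other annotated genes of the same family were looked up, in the families of serine proteases and their homologues, cytochrome P450 genes, receptors, odorant binding proteins and dynein heavy chains. The lookup covered only the 773 identifiers with a product name in the shortened annotation, so the lists may hold only part of each family. The 5 lists comprised 25 annotated genes, of which 5 were members and the other 20 were tested in the same fit. None of the 20 was lower or higher at an adjusted p under 0.05 by the edgeR exact test, beside 268 lower (2.42%) and 246 higher (2.22%) of all 11095 genes, and a count of 0 among 20 genes is near these shares. Of the 20, 2 had an unadjusted p under 0.05 in that test, and none was called by the edgeR quasi-likelihood test, with or without the replicate number as a block, DESeq2 or limma-voom, where 1 to 3 had an unadjusted p under 0.05. The 2 genes of the exact test were AAEL002276, a putative serine protease with 0.126 ± 0.0662 CPM at 10 µM heme and 0.273 ± 0.0850 CPM at 0 µM heme, and the cytochrome P450 CYP4D24 (AAEL007815) with 0.397 ± 0.147 CPM at 10 µM heme and 0.228 ± 0.0945 CPM at 0 µM heme (SD, n = 4 each). The median log2 difference of the 20 genes was 0.03, beside 0.02 over all genes tested, but it differed between the families. It was -0.60 for the 6 other serine proteases and homologues, 0.10 for the 7 other cytochrome P450 genes and 0.04 for the 5 other receptors. The other odorant binding protein had -0.38 and the other dynein heavy chain -0.05. The 6 serine proteases and homologues had low mean levels, 0.236 to 0.886 CPM at 0 µM heme. Of the genes listed, 1 of 7 serine proteases and homologues, 1 of 8 cytochrome P450 genes, 1 of 6 receptors, 1 of 2 odorant binding proteins and 1 of 2 dynein heavy chains belonged to the set. The other annotated dynein heavy chain, AAEL007132, had 89.1 ± 19.6 CPM at 10 µM heme and 95.0 ± 15.3 CPM at 0 µM heme (SD, n = 4 each). OBP22 (AAEL005772), the other odorant binding protein listed, had 0.161 ± 0.0993 CPM at 10 µM heme and 0.221 ± 0.110 CPM at 0 µM heme (SD, n = 4 each).

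The 12 genes with the lowest relative level, among those with at least 1 CPM at 0 µM heme, had between 18.5 and 34.8% of the 0 µM level. AAEL026689 was at the head, with 2.12, 3.99, 2.28 and 3.59 CPM at 10 µM heme, against 11.9, 21.7, 13.0 and 18.2 CPM at 0 µM heme. Its lowest library without heme was 2.98 times its highest library with heme. Counts behind these values were 106, 221, 113 and 198 at 10 µM heme, against 545, 1163, 682 and 997 at 0 µM heme. In both groups replicates 2 and 4 were the higher pair and replicates 1 and 3 the lower pair.

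AAEL022822 had the highest CPM of the 12, with 10.8, 9.84, 13.4 and 9.35 CPM at 10 µM heme, against 31.9, 36.8, 31.1 and 43.8 CPM at 0 µM heme. AAEL004021 had 5.35, 7.33, 5.18 and 7.21 CPM at 10 µM heme, against 15.1, 19.5, 15.7 and 23.4 CPM at 0 µM heme. Both had a gap of more than 2 times between the groups, with the lowest library without heme at 2.33 times the highest heme library in AAEL022822 and at 2.06 times in AAEL004021. AAEL000551, with 2.48, 2.58, 2.46 and 3.05 CPM at 10 µM heme, against 6.67, 9.14, 7.60 and 7.01 CPM at 0 µM heme, had a gap of 2.19 times. AAEL000323 had 0.781, 0.596, 0.685 and 0.761 CPM at 10 µM heme, against 2.44, 2.73, 2.17 and 2.24 CPM at 0 µM heme, and its gap was 2.78 times. In each of these 4 genes the SD within either group was well below the distance between the group means. For AAEL004021 the means were 6.27 ± 1.16 CPM at 10 µM heme and 18.4 ± 3.83 CPM at 0 µM heme (SD, n = 4 each). Its libraries without heme ranged more widely than the gap between its groups.

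The other genes among the 12 had fewer counts or varied more. AAEL021173 had the widest gap of the whole set, 3.04 times, with 0.160, 0.271, 0.282 and 0.145 CPM at 10 µM heme, against 1.20, 0.860, 0.857 and 1.11 CPM at 0 µM heme. These levels rested on 8 to 15 counts per heme library and on 45 to 61 counts per library without heme. AAEL005702 had 0.320, 0.686, 0.524 and 0.308 CPM at 10 µM heme, against 1.13, 2.95, 3.71 and 1.31 CPM at 0 µM heme. Within each group its replicates 2 and 3 were well above replicates 1 and 4, and its coefficient of variation at 0 µM heme was 55.3%. AAEL000058 had 0.240, 0.379, 0.242 and 0.562 CPM at 10 µM heme, against 1.11, 1.44, 1.03 and 2.34 CPM at 0 µM heme. Replicate 4 was the highest library of this gene in both groups.

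For AAEL001199 the level was 0.421, 0.289, 0.0201 and 0.326 CPM at 10 µM heme, against 1.42, 1.01, 1.22 and 0.547 CPM at 0 µM heme. Replicate 3 with heme held a single count of this gene, and its coefficient of variation with heme, 65.1%, was the highest in the set. AAEL024331 likewise had 3 counts in replicate 1 with heme, with 0.0601, 0.199, 0.423 and 0.344 CPM at 10 µM heme, against 0.937, 1.37, 0.971 and 0.785 CPM at 0 µM heme. AAEL017524 had 0.681, 0.795, 0.826 and 1.07 CPM at 10 µM heme, against 1.77, 2.77, 2.80 and 2.54 CPM at 0 µM heme, with the lowest library without heme at 1.65 times the highest heme library. In AAEL021025 the groups almost met, with 0.421, 0.126, 0.262 and 0.399 CPM at 10 µM heme, against 0.436, 1.14, 0.838 and 1.64 CPM at 0 µM heme. Its replicate 1 held 21 counts with heme and 20 counts without it, and after TMM scaling its groups overlapped.

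**Figure D5:**
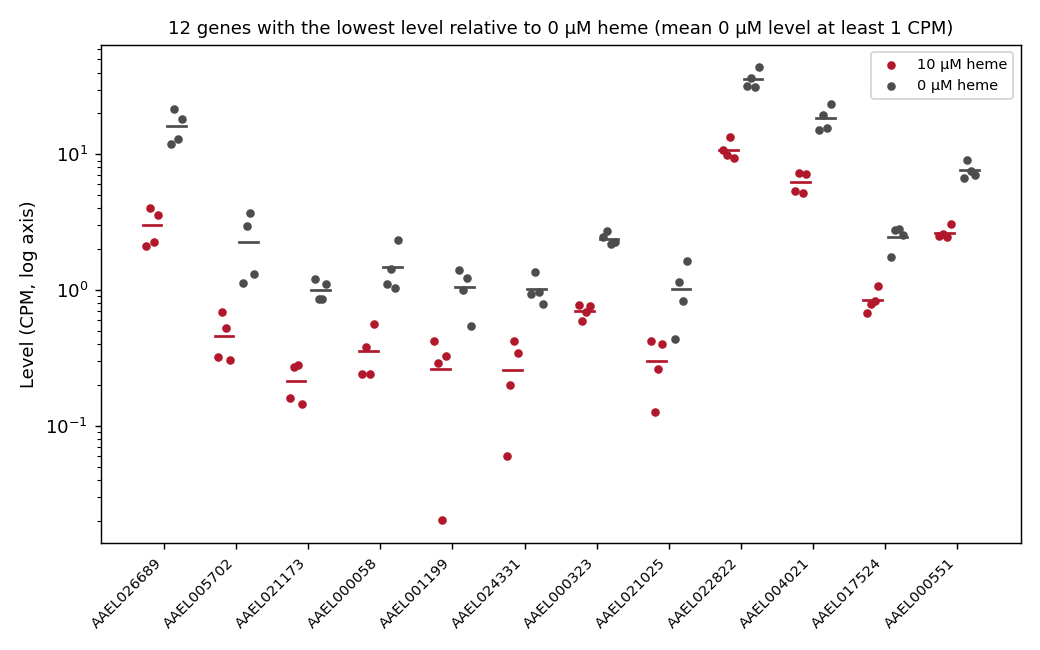
Level in each library (CPM, log axis) of the 12 genes with the lowest level at 10 µM heme relative to 0 µM heme among members with at least 1 CPM at 0 µM heme, ordered from 18.5% on the left to 34.8% on the right; red points (left of each pair) are libraries at 10 µM heme, grey points (right) are libraries at 0 µM heme, and lines are means of 4. AAEL001199 in replicate 3 and AAEL024331 in replicate 1 at 10 µM heme are the lowest points, at 0.0201 and 0.0601 CPM.

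Below 1 CPM at 0 µM heme, and so outside these 12, AAEL024870 stood at 19.9% of its 0 µM level, with 0.240, 0.0903, 0.0403 and 0.181 CPM at 10 µM heme, against 0.632, 0.711, 0.723 and 0.712 CPM at 0 µM heme. Its libraries without heme were nearly equal, with a coefficient of variation of 6.04%, whereas that with heme was 65.0% and rested on 2 to 12 counts. AAEL021609, with 22.7%, had 0.100, 0.108, 0.0604 and 0.218 CPM at 10 µM heme, against 0.262, 0.580, 0.514 and 0.785 CPM at 0 µM heme. Replicate 4 was its highest library in both groups.

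After the overlapping pair, AAEL001232 had the highest CPM. It had 50.0, 85.0, 62.4 and 102 CPM at 10 µM heme, against 145, 215, 193 and 195 CPM at 0 µM heme. Replicates 1 and 3 with heme were below replicates 2 and 4, and replicate 1 was the lowest in both groups. The level with heme was 40.0% of that without it.

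AAEL000549, AAEL005826, AAEL009836 and AAEL013808 had mean levels of 56.8 to 74.6 CPM at 0 µM heme and well separated groups. AAEL000549 had 35.6, 38.2, 40.0 and 38.5 CPM at 10 µM heme, against 74.0, 83.2, 63.8 and 77.3 CPM at 0 µM heme. The levels of AAEL005826 were 34.1, 35.6, 34.5 and 31.8 CPM at 10 µM heme, against 78.5, 69.8, 76.1 and 65.6 CPM at 0 µM heme. These 2 genes had the lowest coefficients of variation with heme in the set, 4.80% for AAEL000549 and 4.67% for AAEL005826. AAEL009836 had 31.8, 30.0, 24.6 and 26.0 CPM at 10 µM heme, against 88.1, 73.3, 66.8 and 61.6 CPM at 0 µM heme. AAEL013808 had 20.2, 19.8, 24.9 and 23.8 CPM at 10 µM heme, against 67.1, 71.2, 41.6 and 47.4 CPM at 0 µM heme. In AAEL013808 replicates 1 and 2 were the lower pair with heme and the higher pair without it.

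AAEL021429 and AAEL001887 were members with high CPM whose groups were barely apart. AAEL021429 had 42.7, 19.9, 59.5 and 41.8 CPM at 10 µM heme, against 109, 61.6, 73.8 and 60.5 CPM at 0 µM heme. Its highest library with heme, replicate 3, was just below replicate 4 without heme, and after TMM scaling the groups overlapped. AAEL001887 had 23.3, 27.5, 32.6 and 35.3 CPM at 10 µM heme, against 35.4, 54.5, 88.7 and 69.7 CPM at 0 µM heme. Replicate 4 with heme and replicate 1 without heme were almost equal. These values show that a ratio of means near the median of the set, 47.8% for AAEL001887, could go with groups that nearly touch.

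The limit of the rule fell among genes of like values. The members just inside it were AAEL007034, AAEL010105 and AAEL024112, with 56.95, 57.00 and 57.11% of the 0 µM level at 10 µM heme. The genes just outside it, which met the other conditions, were AAEL010109, AAEL000080 and AAEL020224 with 57.49, 58.10 and 58.14%. AAEL007034 had 10.6, 9.65, 11.9 and 15.0 CPM at 10 µM heme, against 22.7, 18.1, 23.2 and 18.8 CPM at 0 µM heme. AAEL000080, outside the rule, had 60.1, 50.6, 65.7 and 58.6 CPM at 10 µM heme, against 101, 102, 95.4 and 105 CPM at 0 µM heme. The gene outside the limit had the tighter libraries of these 2.

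Some members carried neighbouring identifier numbers. Counting identifiers that differ by 1 or 2, there were 8 pairs with 16 members, among them the overlapping pair AAEL002309 and AAEL002311. A correlation of the log2 levels (with a prior count of 2) after subtraction of each group's mean describes how a pair varied among replicates, over 8 libraries that each contribute both genes. It was 0.99 for AAEL004242 and AAEL004244 and 0.95 for AAEL009836 and AAEL009837, beside a median of 0.06 over all 10153 pairs of members. For AAEL019973 and AAEL019974 it was 0.74, and for AAEL021025 and AAEL021026 it was 0.69. In 3 pairs it was low, with 0.32 for AAEL000549 and AAEL000551, 0.15 for AAEL010623 and AAEL010625 and -0.15 for AAEL006989 and AAEL006991.

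AAEL004242 had 5.69, 8.58, 7.57 and 7.69 CPM at 10 µM heme, against 12.4, 19.0, 14.5 and 13.8 CPM at 0 µM heme. AAEL004244 had 6.51, 9.84, 8.40 and 9.12 CPM at 10 µM heme, against 13.4, 21.0, 16.0 and 14.8 CPM at 0 µM heme. In both genes replicate 2 was the highest and replicate 1 the lowest library of each group. AAEL009837, the neighbour of AAEL009836, had 15.1, 13.4, 10.8 and 11.8 CPM at 10 µM heme, against 39.9, 37.9, 30.3 and 29.1 CPM at 0 µM heme, and its level with heme was 37.2% of that without heme, against 38.8% for AAEL009836. Whether reads were shared between the genes of these pairs was not tested.

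The members did not rank the libraries of a group in 1 order. At 10 µM heme, replicate 4 was the highest library for 58 of the 143 genes (40.6%), beside 51.5% of all 9498 identifiers, and replicate 1 was the lowest for 49 genes (34.3%), beside 49.9%. At 0 µM heme, replicates 1 and 2 were each the highest for 43 genes (30.1%), beside 28.1 and 33.5% of all identifiers, and replicate 1 was also the lowest for 48 genes (33.6%), beside 43.3%. No library of either group was thus the highest or the lowest for most of the set, while replicate 4 at 10 µM heme was the highest for most of the 9498 identifiers. The rule bears on these shares, since it leaves out genes in which a high heme library reaches a low library without heme. The median level of the members relative to the 0 µM mean was 41.9, 45.4, 45.4 and 50.0% in replicates 1 to 4 at 10 µM heme, against 96.8, 104, 94.8 and 99.0% at 0 µM heme.

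The scaling of the libraries decided the place of some genes. Under TMM scaling, which shifted the median log2 difference of all identifiers by 0.044, 114 of the 143 genes met the same rule and 29 did not. Of those 29, 18 failed the fold condition and 11 had groups that overlapped, and 4 other genes came in. The 11 included AAEL002309, AAEL002311 and AAEL021429. When each library was left out in turn, which can only relax the condition that the groups do not overlap, 85 of the 143 genes met the rule every time, and the genes lost numbered between 7, without replicate 4 at 10 µM heme, and 21, without replicate 1 at 10 µM heme.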

How the data were processed

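The sample labels gave the groups (4 libraries at 10 µM heme, 4 at 0 µM) and replicate numbers. Per the study's methods, HISAT2 aligned the reads to AaegL5 (version 2.1.0 in the submitters' processing notes), SAMtools removed alignments under a mapping quality of 10 and bedtools (2.19.1) counted reads per transcript. The authors deposited raw counts per identifier, with no normalization and replicates kept separate. How strand and reads over several genes were handled was not found in the labels or methods, and such counting can give 1 read to overlapping genes.

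CPM were computed from library totals without AAEL018658 to AAEL018694, and the rule was applied to them. The tests were fitted on the whole table, so that their library totals and the genes tested were not cleared of these identifiers. The edgeR exact test (version 4.0.16, R 4.3.3) and the Benjamini-Hochberg adjustment, here over 11095 genes, are those of the study's methods, while the filter (filterByExpr) and the TMM scaling were chosen here. Alternatives were the edgeR quasi-likelihood test without and with the replicate number as a block, DESeq2 1.42.0, limma-voom 3.58.1 with quality weights, other scalings, no filter and omitted libraries. Where a list is described, its median and counts stand in for a set test.

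The members and lists were chosen with earlier results of these data known. The families of odorant binding proteins and dynein heavy chains, and the search term for receptors, were added after the members had been seen. AAEL024870, AAEL021609, AAEL009837, AAEL004242 and AAEL004244 were named after their values were seen. The other named genes are the 12 with the largest ratio among those of at least 1 CPM at 0 µM heme, the 10 with the highest CPM at 0 µM heme, the 3 on each side of the limit and those with a product. The RefSeq gene table matched no identifier, so names came from a shortened annotation table of the study with 1547 identifiers, 773 of them with a product.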

Additional observations from a re-analysis of the deposited data

Results flagged for a closer look

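In 2 of 70 groups of 4 libraries examined, 1 library lay far from the other 3 by Dixon's criterion, where chance gives about 3.50. GPRCAL1 (AAEL010043) had 1.83 CPM in replicate 4 at 10 µM heme, and the other 3 heme libraries had 1.52 to 1.54 CPM. AAEL024112 had 0.361 CPM in replicate 1 at 10 µM heme, and the other 3 heme libraries had 0.584 to 0.614 CPM. AAEL024112 was the member nearest to the fold limit, and without this library it stood at 63.4% of the 0 µM level, outside the rule.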

How the results depend on the processing

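The exact test called 123 of the 143 genes lower, the quasi-likelihood test 86, DESeq2 127, limma-voom 113, and the exact test without a filter on low counts 109, with 92.0 to 112 when a library was left out. Over all genes the calls lower with heme numbered 268 with the exact test, 170 with the quasi-likelihood test, 398 with DESeq2 and 334 with limma-voom. For the exact test without a filter, or with libraries left out, the calls over all genes were not counted. Because the choice of members used the same comparison, nothing can be read from the counts of members called. After subtraction of each group's mean, same-numbered libraries had correlations over all genes tested of 0.515, 0.0702, 0.0616 and 0.157 for replicates 1 to 4. These values do not settle whether the replicate numbers pair the samples. With the replicate number as a block the quasi-likelihood test called 113 members and 374 genes. For the other listed genes of the same families the count of 0 lower with heme held in every alternative and every omission. Calls higher with heme were not counted in the omissions. With a pair of libraries left out, as given below, 19 of the 20 genes were tested.

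The size of the set depended on the limits of the rule. A fold limit of 1.5 gave 224 genes with a median fold of 1.85, a limit of 2 gave 86 genes with a median fold of 2.40, a minimum of 2 CPM gave 89 genes, and no minimum gave 260 genes with a median fold of 2.37, against 143 genes and 2.11. Leaving out a library gave 142 to 192 genes (122 to 136 of them members), median folds of 2.03 to 2.17 and a summed level of 47.6 to 54.8% of the 0 µM sum, against 49.6%. Without replicate 2 at 10 µM heme and replicate 1 at 0 µM heme, a pair the study describes as lying apart, 205 genes met the rule, 119 of them members. The exact test called 90 members in that setting, where the calls over all genes were not counted, so nothing can be read from it. With the 37 identifiers kept in the totals 153 genes met it, and with TMM 118.

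Limits are the pooling of midguts, counts per transcript without a stated treatment of strand, levels near 1 CPM for many members, and product names for only 9 of 143. With 4 libraries a group, the p-values weigh the group difference against the spread between these pools, with variance estimates that draw on all genes.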

Other observations

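Identifier numbers of the members were unevenly spread. Between AAEL006971 and AAEL007034, a span of 64 numbers, 7 of the 37 identifiers with at least 0.5 CPM at 0 µM heme belonged to the set (18.9%), beside 1.51% of all such identifiers, and spans of that length that hold none of these 7 members had at most 4. The 7 were AAEL006971, AAEL006989, AAEL006991, AAEL007006, AAEL007010, the UDP-glucose 4-epimerase AAEL007018 and AAEL007034, with 35.7 to 57.0% of their 0 µM level at 10 µM heme. The other identifiers of the span had 64.4 to 132% with a median of 98.0%. The span was chosen after the values were seen and was not tested. The annotation places identifiers of this range on more than 1 chromosome, so that nearness in number is not nearness in the genome.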
